A study of Homo sapiens with 8 samples.

Results

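The 4 libraries described here hold RNA from ZR-75-1 cells that had received estradiol (E2) and no other hormone. They are 4 of the 8 libraries of a study that compared E2 alone with E2 plus dihydrotestosterone (DHT), a potent androgen. ZR-75-1 is an established human breast cancer cell line that carries estrogen receptor alpha and grows in response to estrogen. Per the labels' protocols, all cells were first kept for 72 h in phenol red-free RPMI-1640 with charcoal-stripped serum, which removes steroids. They then received 10 nM E2 for 4 h, and in the other group 10 nM E2 together with 10 nM DHT. No arm went without hormone, so the values below are levels under E2, and what E2 itself changed cannot be read from them. A single cell line in culture has no stroma, vessels or immune cells, and its levels are those of that line. Libraries were made from total RNA with a strand-specific kit and sequenced as paired ends.

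Luminal breast cancer cells resemble the cells that line the milk ducts. They are held in that state by transcription factors such as FOXA1, which opens chromatin, GATA3, and the estrogen receptor ESR1, which binds DNA when its ligand is present and switches on genes such as TFF1, GREB1 and PGR. Simple epithelial keratins and E-cadherin give them their epithelial structure, while basal cells use other keratins and the factor TP63.

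Libraries were placed by the library name that stands as each record's description and heads its column of values, as replicates 1 to 4 of E2. In 4 of the 8 records the title names another treatment than this library name. Among the E2 libraries these are replicates 3 and 4, whose records are titled E2 plus DHT. The record passage is 8 for E2 replicates 1 and 3 and 10 for replicates 2 and 4. The passage field runs with the replicate numbers of the titles, as 8, 9, 10 and 11, so it is as uncertain as those titles. No label says that the replicates came from separate cultures, and the spread behind each p-value may therefore be technical.

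The values are RPKM, reads scaled by the length of the exons and by the reads of the library. The library sizes behind the scaling, recovered from the values, were 31913885, 25476963, 19955045 and 20474595 reads for E2 replicates 1 to 4. Between 78.3% and 83.7% of these reads fell in exons of the table. Of the 57773 genes in the table, 24957 were above 0 in at least 1 E2 library and 16676 in all 4. Over the 4 libraries, 3 reads on a transcript of 1 kb correspond to 0.0307 RPKM, and the RPKM of 3 reads is lower on longer transcripts in proportion. Properties of single libraries touch the results. Replicate 4 held 21 protein-coding genes at least 2 times above every other E2 library, which are described last, and results that rest on them are given with and without it. Replicates 1 and 3 differed from replicates 2 and 4 in a way that in part followed the GC content of the genes.

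Much of the protein-coding catalogue was in use. Under E2, 10515 protein-coding genes (51.7%) had a mean of at least 0.5 RPKM, 9456 had at least 1 RPKM, and 2631 had at least 10 RPKM. Only 130 reached 100 RPKM. At the other end, 3284 protein-coding genes (16.2%) were listed at 0 in all 4 libraries. Reads were spread over many genes: between 1051 and 1077 nuclear protein-coding genes were needed to hold 50% of the reads of that class in a library. The 20 highest of them held 7.06% ± 0.221 of these reads (SD, n = 4).

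The most abundant nuclear protein-coding transcripts mixed housekeeping genes with genes of the luminal secretory cell. GAPDH, a glycolytic enzyme (hg19 chromosome 12, 6643093 to 6647537), stood first at 1679, 1217, 1582 and 1201 RPKM in E2 replicates 1 to 4. SLC39A6, a zinc importer known as LIV-1 and as an estrogen-regulated gene (chromosome 18, 33688495 to 33709348), followed at 1075, 1076, 1123 and 984 RPKM. GAPDH was above SLC39A6 in every library, with the lowest GAPDH value above the highest SLC39A6 value. AGR2, a protein disulfide isomerase of the endoplasmic reticulum that secretory cells need to fold mucins (chromosome 7, 16831435 to 16873057), had 940.2, 1028, 969.8 and 820.7 RPKM. KRT19, a keratin of simple epithelia (chromosome 17, 39679869 to 39684560), had 955, 593, 927 and 718 RPKM. KRT19 was high in replicates 1 and 3 and low in replicates 2 and 4, while AGR2 was highest in replicate 2. SCGB2A2, which encodes mammaglobin A, a secreted protein of the breast (chromosome 11, 62037627 to 62040628), had 654, 665, 639 and 661 RPKM. Its mean of 655 ± 11.6 RPKM (SD, n = 4) varied by 1.04 times between the highest and the lowest library, against 1.61 times for KRT19.

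**Figure D1:**
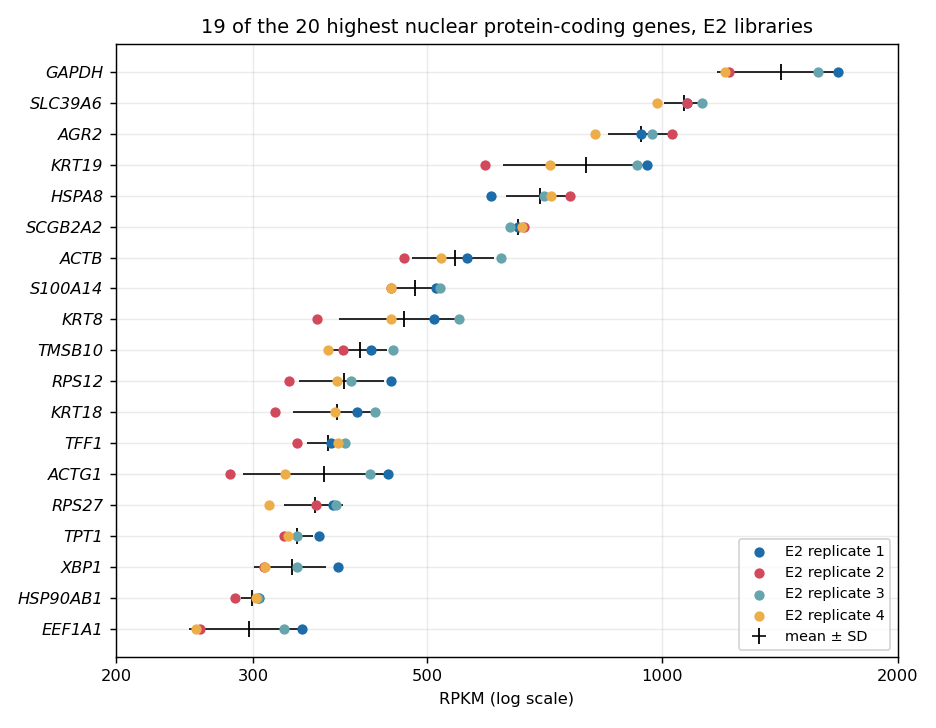
RPKM (x axis, log scale) of 19 of the 20 highest nuclear protein-coding genes (y axis, ordered by mean) in each E2 library, with mean ± SD in black (n = 4). Replicates 1 and 3 sit to the right of replicates 2 and 4 for KRT19, KRT8, ACTG1 and EEF1A1, while the 4 points of SCGB2A2 lie together at 639 to 665 RPKM.

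Most neighbouring ranks among the first 20 were not resolved. Of the 19 pairs of neighbours in this order, 16 had overlapping ranges over the 4 libraries. The 3 that did not overlap were GAPDH above SLC39A6, SCGB2A2 above ACTB, and XBP1 above HSP90AB1. HSPA8, the constitutive cytosolic chaperone, averaged 698 ± 67.4 RPKM and ACTB, cytoplasmic actin, 544 ± 65.5 RPKM (SD, n = 4 each). TFF1, a secreted trefoil peptide and a classic estrogen-induced gene (chromosome 21, 43782391 to 43786703), had 377, 341, 393 and 385 RPKM. XBP1, a transcription factor of the unfolded protein response and of luminal cells (chromosome 22, 29190543 to 29196585), had 385, 309, 341 and 310.5 RPKM. TFF1 was lowest in replicate 2 and XBP1 was highest in replicate 1. Also among the first 20 were S100A14, a calcium-binding protein at a mean of 483 RPKM, KRT8 at 468, TMSB10, which binds actin monomers, at 410.0, KRT18 at 384, ACTG1, the other cytoplasmic actin, at 369, the ribosomal proteins RPS12 and RPS27 at 392 and 359, TPT1, a translationally controlled protein, at 341, HSP90AB1, a chaperone of steroid receptors, at 299, and EEF1A1, a translation elongation factor, at 296. KRT8 and KRT18 share 1084 bases on opposite strands of chromosome 12. Whether the counting used strand is not given in the sources used here, so reads there cannot be assigned to one of them. Several of these genes, among them GAPDH, the actins, keratins and ribosomal proteins, have processed copies in the genome, and their levels depend on how reads were split.

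Genes of luminal identity were almost all present. Of 75 matched genes in 3 lists (transcription factors, keratins and adhesion, secreted and estrogen-linked genes), 71 had a mean of at least 1 RPKM and 64 of at least 5 RPKM. Over all protein-coding genes 46.5% reached 1 RPKM, and their median was 0.642 RPKM, against 19.4 RPKM over the luminal genes. Of the 20 highest nuclear protein-coding genes 8 were on these lists: SLC39A6, AGR2, KRT19, SCGB2A2, KRT8, KRT18, TFF1 and XBP1. These lists and the lineage lists below were chosen with earlier results of these data known. Their contrasts with all protein-coding genes are therefore not independent tests.

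All 23 luminal transcription factors were at or above 1 RPKM. XBP1 was the highest and TBX3, a T-box factor of the mammary gland, the lowest at 1.62 ± 0.116 RPKM. ESR1, the receptor for the hormone given, had 7.30, 5.87, 6.49 and 7.62 RPKM in replicates 1 to 4, a mean of 6.82 ± 0.792 RPKM (SD, n = 4). FOXA1 had 48.2, 41.9, 45.2 and 38.5 RPKM. GATA3 had 25.3, 21.7, 21.9 and 21.6 RPKM. The range of FOXA1 lay above that of GATA3, and that of GATA3 above that of ESR1. PGR, the progesterone receptor and an estrogen-induced gene, had 5.39, 5.03, 4.41 and 6.74 RPKM, a range that overlapped that of ESR1. TRPS1, a GATA-type repressor of luminal cells, stood at 94.4 ± 2.87 RPKM. SPDEF, an Ets factor of secretory epithelium, averaged 77.3 ± 21.1 RPKM, with 99.5 and 91.2 RPKM in replicates 1 and 3 and 58.1 and 60.5 RPKM in replicates 2 and 4. The grainyhead factor GRHL2 averaged 19.1 RPKM, the Ets factor ELF3 23.7 RPKM, the Notch target HES1 25.2 RPKM and the AP-2 factors TFAP2C, TFAP2B and TFAP2A 16.4, 13.6 and 4.70 RPKM. FOXA1 and ELF3 are among 15 of 83 genes looked at whose span overlaps another gene above 0.5 RPKM. For FOXA1 that gene is TTC6, on the other strand, at 2.88 RPKM. Among the others is OCLN, a tight junction protein at 2.63 RPKM, whose span shares 63861 bases with the pseudogene GUSBP3 at 8.19 RPKM.

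All 21 matched genes of the keratin and adhesion list reached 1 RPKM. CDH1, E-cadherin, had 156, 132, 162 and 142 RPKM, and EPCAM, an epithelial adhesion molecule, 66.8, 71.1, 71.9 and 73.3 RPKM. CDH1 was thus higher in replicates 1 and 3 than in the others, and EPCAM was lowest in replicate 1. The catenins CTNNB1 and CTNND1 averaged 44.4 and 19.4 RPKM, and the claudins CLDN3, CLDN7 and CLDN4, of tight junctions, 23.3, 22.6 and 17.7 RPKM. RAB25, a GTPase of epithelial membrane traffic, averaged 57.5 RPKM, the tetraspanin CD9 55.3 RPKM, and the epithelial splicing factors ESRP1 and ESRP2 24.5 and 19.4 RPKM. KRT7, another keratin of simple epithelia, was the lowest at 2.36 ± 0.610 RPKM, far from KRT19 at 798 ± 173 RPKM.

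Of the 31 secreted and estrogen-linked genes 27 reached 1 RPKM. CCND1, cyclin D1, averaged 130 ± 14.05 RPKM, IGFBP5, which binds insulin-like growth factors, 111 ± 22.6 RPKM, and CTSD, the lysosomal protease cathepsin D, 105 ± 33.6 RPKM. CTSD had 146 and 115 RPKM in replicates 1 and 3 and 68.3 and 90.01 RPKM in replicates 2 and 4. The trefoil peptide TFF3 averaged 82.5 RPKM, the secreted AZGP1 80.1 RPKM and SCGB1D2, the partner of mammaglobin A, 78.5 RPKM. GREB1, an early estrogen target, had 16.9, 11.2, 11.4 and 14.1 RPKM, and ERBB2, the HER2 receptor, 26.8, 15.9, 24.2 and 18.8 RPKM. The span of ERBB2 overlaps MIEN1 at 7.04 RPKM and PGAP3 at 3.58 RPKM, both on the other strand. PIP, a secreted protein of apocrine cells, was split in another way, at 33.9 and 30.7 RPKM in replicates 1 and 4 and 18.8 and 18.0 RPKM in replicates 2 and 3.

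The 4 luminal genes below 1 RPKM were all on this list. DNAJC12, a co-chaperone, averaged 0.580 ± 0.122 RPKM. CXCL12, a chemokine known as an estrogen target, had 0.108, 0.0738, 0.134 and 0.498 RPKM, with replicate 4 apart. Its mean was 0.203 RPKM over the 4 libraries and 0.105 ± 0.0300 RPKM without replicate 4 (SD, n = 3). SERPINA3, a protease inhibitor, averaged 0.0209 RPKM and ANKRD30A, the breast differentiation antigen NY-BR-1, 0.0150 RPKM. Both had values above 0 in all 4 libraries.

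Markers of other lineages were mostly silent. Of 264 matched markers in 18 lists, 198 (75%) had a mean under 0.1 RPKM, against 38.9% of all protein-coding genes. All 4 libraries listed 62 of them at 0. Without replicate 4 these counts were 201 and 65 of the lists' members. A total of 25 markers reached 1 RPKM.

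**Figure D2:**
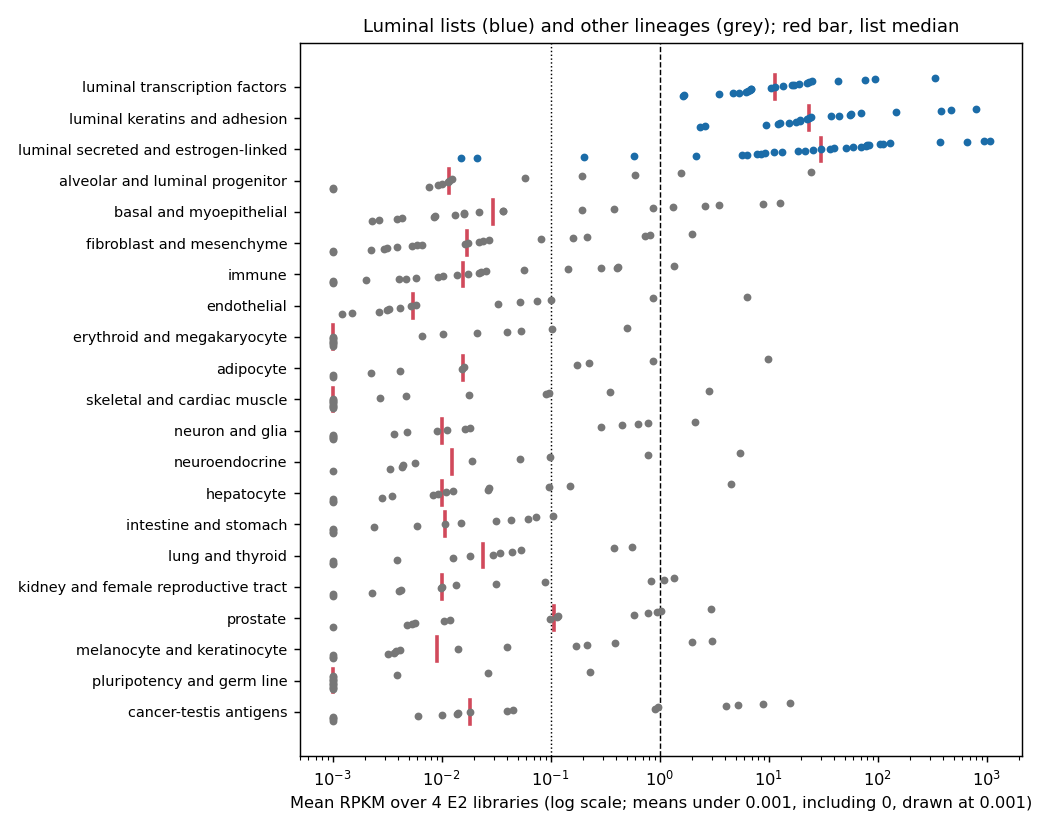
Mean RPKM over the 4 E2 libraries (x axis, log scale) of each gene in the 3 luminal lists (blue) and the 18 lists of other lineages (grey), 1 row a list, with the list median in red and dotted and dashed lines at 0.1 and 1 RPKM. The luminal medians lie at 11.5, 23.3 and 29.98 RPKM, while the medians of the other lists lie at or under 0.107 RPKM.

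The markers that define basal breast cells were at or near 0. KRT5 and KRT14, the basal keratins, averaged 0.00229 and 0.00860 RPKM with reads in replicate 2 only, and TP63, the basal master factor, 0.0162 RPKM. Of the 20 basal and myoepithelial markers 5 nevertheless reached 1 RPKM. Among them were CDH3, the surface protein P-cadherin, at 12.7 ± 2.37 RPKM, ITGB4 and ITGA6, the integrin pair of hemidesmosomes, at 8.86 ± 1.98 and 3.54 ± 0.242 RPKM, and EGFR, the epidermal growth factor receptor, at 1.32 ± 0.0697 RPKM (SD, n = 4 each). CDH3 was above 10 RPKM in each library, at 14.5, 11.2, 15.01 and 10.3 RPKM.

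Mesenchymal genes were low. VIM, the intermediate filament of mesenchymal cells, averaged 0.0176 RPKM, and ZEB1, a repressor of E-cadherin, 0.0240 RPKM. TWIST1, another transcription factor of mesenchyme, was the exception at 2.16, 1.82, 2.32 and 1.71 RPKM. FN1, fibronectin, and COL1A1, a collagen chain, stood at 0.822 and 0.741 RPKM.

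Among 20 immune markers LCP1, an actin bundling protein of leukocytes that carcinoma lines can express, was the only one at 1 RPKM or more, with 1.36 ± 0.0781 RPKM. PTPRC, the pan-leukocyte marker CD45, averaged 0.0102 RPKM. Of 14 endothelial markers EGFL7, a secreted vascular protein, stood at 6.29 ± 1.37 RPKM, while CDH5, vascular cadherin, averaged 0.00329 RPKM. In the erythroid and megakaryocyte list no gene reached 1 RPKM, and EPOR, the erythropoietin receptor, was the highest at 0.499 RPKM.

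In the alveolar and luminal progenitor list SLPI, a secreted protease inhibitor, had 18.6, 24.4, 32.0 and 23.5 RPKM and ALDH1A3, a retinaldehyde dehydrogenase, averaged 1.56 RPKM. The milk protein genes CSN2 and LALBA averaged 0.00921 and 0.0100 RPKM. ELF5, the factor of alveolar differentiation, had 0.0767, 0.0611, 0.0335 and 0.598 RPKM, high in replicate 4 alone. Its mean was 0.192 RPKM over the 4 libraries and 0.0571 ± 0.0219 RPKM without replicate 4.

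Single genes stood out in otherwise silent lists. CFD, adipsin, had 13.9, 6.71, 11.0 and 7.79 RPKM among 10 adipocyte genes. ENO2, neuron-specific enolase, stood at 5.43 ± 0.790 RPKM among 10 neuroendocrine genes, SERPINA1, an antitrypsin made in the liver, at 4.48 ± 0.556 RPKM among 14 hepatocyte genes, and TNNI3, cardiac troponin I, at 2.84 ± 0.375 RPKM among 16 muscle genes. MBP, myelin basic protein, averaged 2.09 RPKM, KRT10 and IVL, of differentiating skin, 3.00 and 1.98 RPKM, and WT1 and OVGP1, of the kidney and oviduct, 1.35 and 1.11 RPKM. TRGC1 and FOLH1, on the prostate list, averaged 2.93 and 1.04 RPKM, while KLK3, prostate-specific antigen, averaged 0.0106 RPKM. The prostate list had the highest median of the 18, at 0.107 RPKM. In the intestine and stomach list the highest gene was MUC2, a gel-forming mucin, at 0.106 RPKM. In the pluripotency and germ line list 11 of 14 genes, POU5F1 among them, were listed at 0 in all libraries. LIN28A led that list at 0.228 RPKM, with 0.780 RPKM in replicate 4 and 0.0435 ± 0.0369 RPKM over the other libraries.

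Cancer-testis antigens, normally restricted to the germ line, formed the list with 3 genes above 5 RPKM. MAGEA6 had 17.9, 13.8, 18.1 and 13.4 RPKM, MAGEC2 9.22, 8.04, 10.2 and 7.95 RPKM, and PRAME 4.38, 4.88, 5.598 and 5.895 RPKM. MAGEA6 and MAGEC2 were lower in replicates 2 and 4, and PRAME was highest in replicate 4. CTAG2 averaged 4.10 ± 1.15 RPKM, and 11 of the 17 matched antigens were under 0.1 RPKM. MAGEA6 has near-identical copies such as MAGEA3, at 0.898 RPKM, and how reads were split between them is not known.

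The HOX genes, transcription factors that record position along the body axis, were used sparsely. Of 38 genes 31 had a mean under 0.1 RPKM and 10 were listed at 0 throughout. The 4 genes above 1 RPKM were HOXC13 with 5.09, 3.48, 5.18 and 3.87 RPKM, HOXC10 with 4.49, 3.23, 4.34 and 3.92 RPKM, HOXB7 with 3.73, 3.05, 3.92 and 4.05 RPKM, and HOXC11 with 2.49, 1.84, 2.67 and 2.41 RPKM. HOXC10, HOXC11 and HOXC13 lie together at the 5' end of the HOXC cluster on chromosome 12, between 54332535 and 54384063, where HOXC12, among them, averaged 0.00294 RPKM. The 11 genes of the HOXA cluster and the 9 of the HOXD cluster were all under 0.1 RPKM.

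By biotype, a few non-coding RNAs filled most of the RPKM sum. MT-RNR2, the large ribosomal RNA of mitochondria, had 132208, 155280, 128934 and 141428 RPKM. RN7SK, an RNA that holds back transcription elongation (chromosome 6, 52860418 to 52860748), averaged 69813 ± 10739 RPKM and RN7SL2, the RNA of the signal recognition particle (chromosome 14, 50329271 to 50329567), 52518 ± 22483 RPKM. RN7SL2 had 74369 and 67422 RPKM in replicates 1 and 3 and 25729 and 42554 RPKM in replicates 2 and 4. The mitochondrial MT-RNR1 and the nuclear RPPH1 and RMRP, RNAs of the RNase P and RNase MRP enzymes, followed at 22950.2, 12814 and 9204 RPKM. SNORD3A, the U3 RNA of ribosome assembly, ranged widely, with 11558, 1172, 7824 and 3462 RPKM. MALAT1, a nuclear long non-coding RNA, averaged 335 ± 131 RPKM, RNU4-2, a spliceosomal RNA, 298 ± 88.4 RPKM and RNY1, a small cytoplasmic RNA, 229 ± 52.6 RPKM. The 10 highest genes held 71.8% ± 1.12 of the RPKM sum and 37.7% ± 2.17 of the reads (SD, n = 4), since RPKM gives a short transcript more weight than reads do.

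**Figure D3:**
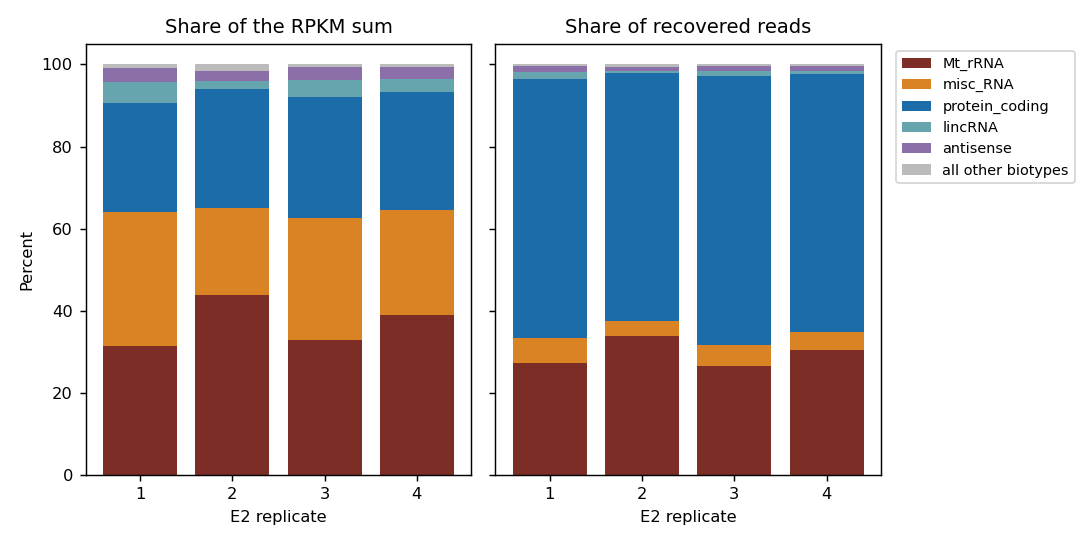
Share in percent (y axis) of the RPKM sum (left) and of the recovered reads (right) held by each gene biotype in E2 replicates 1 to 4 (x axis). Protein-coding genes hold 26.6% to 29.5% of the RPKM sum but 60.5% to 65.5% of the reads, and the mitochondrial ribosomal RNAs (Mt_rRNA) hold more in replicates 2 and 4 than in replicates 1 and 3.

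Protein-coding genes held 26.6%, 28.999%, 29.5% and 28.9% of the RPKM sum in replicates 1 to 4. The class that contains RN7SK and RN7SL2 (misc_RNA) held 32.6%, 21.02%, 29.5% and 25.6%, and the 2 mitochondrial ribosomal RNAs 31.3%, 43.9%, 32.9% and 38.8%. The mitochondrial share was thus higher in replicates 2 and 4, and the share of these short RNAs lower. Counted in reads, protein-coding genes held 63.0% ± 2.03 and mitochondrial ribosomal RNA 29.5% ± 3.35. A mean of 0.5 RPKM was reached by 315 of 7109 lincRNAs, and 203 of 5273 antisense RNAs did so.

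Chromosomes differed in how much of their gene content was used. Over the autosomes and X, the share of protein-coding genes with at least 0.5 RPKM ran between 42.6% on chromosome 21 and 58.1% on chromosome 13. Among the genes in use the median was lowest on chromosomes 21 and 19, at 2.88 and 3.26 RPKM, and highest on chromosome 20, at 6.87 RPKM. Chromosome 20 had 7.32, 6.08, 7.44 and 6.68 RPKM in replicates 1 to 4, above chromosome 19 with 3.67, 2.77, 3.67 and 3.10 RPKM in each. Chromosome 1, with 10.2% of all nuclear protein-coding genes, held 69 of the 377 at 50 RPKM or more. The 69 were 3.32% of its protein-coding genes, against 3.04% on chromosome 6 and 2.71% on chromosome 12. Chromosome 18 held 2.59% of the nuclear coding reads with 1.42% of the genes, and SLC39A6 was its highest gene. The highest genes of further chromosomes were EEF1A2, an elongation factor of muscle and nerve that some breast tumors express, at 295 ± 63.0 RPKM on chromosome 20, RPS2 at 279.7 on 16, RPL4 at 164 on 15, RPL8 at 162 on 8, RHOA, a small GTPase, at 158 on 3, NPM1, a nucleolar chaperone, at 154 on 5, SCD, a fatty acid desaturase, at 149.6 on 10 and RPS3A at 115 on 4. HSP90AA1, the inducible form of the receptor chaperone, was the highest protein-coding gene of chromosome 14, with 199, 259, 213 and 291 RPKM.

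Some genes that every cell uses had very low values. JUNB, an immediate early factor, was listed at 0 in 3 libraries and at 0.0173 RPKM in replicate 1. EIF4A1, a helicase of translation initiation, averaged 0.430 RPKM, and the ribosomal protein gene RPL36A 0.624 RPKM, against a median of 77.4 RPKM over 77 ribosomal protein genes. A gene listed at or near 0 is therefore given here as listed so, and its absence from the cells cannot be taken from the table.

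Replicates of E2 lay close together, with a pattern in what remained. The median SD of log2(RPKM + 0.5) between the 4 libraries was 0.144 over 11371 genes with a mean of at least 0.5 RPKM, with quartiles of 0.0959 and 0.218. Counting error alone would give a median of 0.0582, and 89.3% of genes were above their own counting error. Only 101 genes had an SD over 0.5. Across genes the closest pairs of libraries were replicates 2 and 4 (Pearson r = 0.9925) and replicates 1 and 3 (r = 0.992), and the farthest were replicates 1 and 2 (r = 0.981). These values are across genes, which are not independent replicates. The first principal component held 65.2% of the variance and put replicates 1 and 3 on one side (loadings 0.58 and 0.38) and replicates 2 and 4 on the other (-0.64 and -0.33).

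The direction of that component in part followed the GC content of the transcripts. GC content came from the longest GENCODE 29 transcript of a gene (GRCh38), which was found for 10399 of 10502 nuclear protein-coding genes (99.0%). In the bin of highest GC content, of 10 bins of nearly equal size, the median deviation from the gene's mean, on the log2 scale, was 0.26 in replicate 1 and 0.20 in replicate 3, and -0.32 in replicate 2 and -0.13 in replicate 4. In the bin of lowest GC content it was -0.12, 0.05, 0.00 and 0.07 in replicates 1, 3, 2 and 4. The span between these bins was 0.38, -0.33, 0.15 and -0.20 in E2 replicates 1 to 4. On a scale centred over all 8 libraries the span ran between -0.40 and 0.30 in the E2 libraries and between -0.12 and 0.25 in those with DHT. The medians of 20 bins of GC content were then removed in each library. The median SD over these genes was 0.0959 after this, against 0.141 before and 0.127 when library medians alone were removed. The first component still held 51.7% of the variance after this removal. Its loadings were 0.76 and 0.13 in replicates 1 and 3 and -0.41 and -0.49 in replicates 2 and 4.

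**Figure D4:**
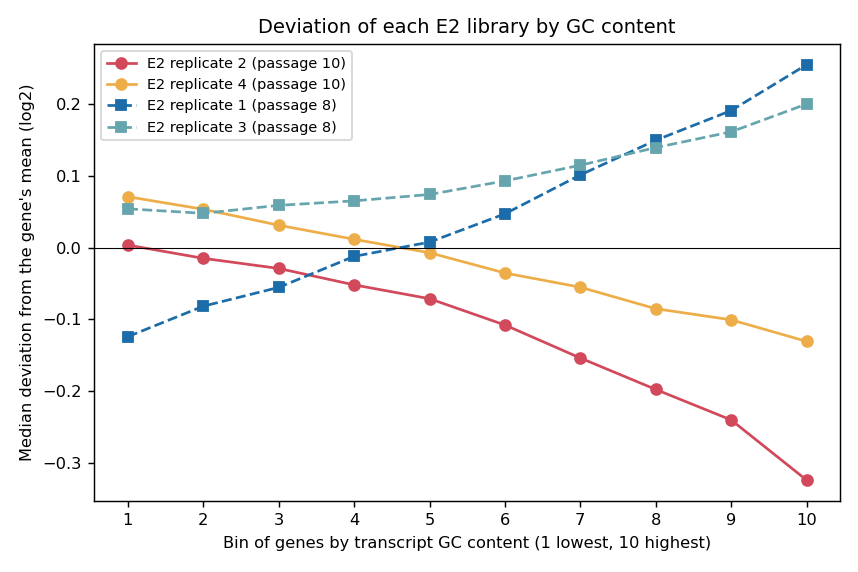
Median deviation of each E2 library from the gene's mean over the 4 libraries (y axis, log2) in 10 bins of nuclear protein-coding genes ordered by transcript GC content (x axis). The lines of replicates 1 and 3 rise to 0.26 and 0.20 in the highest bin, and those of replicates 2 and 4 fall to -0.32 and -0.13.

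The most and least variable genes differed in GC content on the whole, with overlap. Among nuclear protein-coding genes with a mean of at least 5 RPKM, the 10 with the largest SD had a median GC content of 66.3% (39.1% to 73.7%), and the 10 with the smallest SD 41.7% (37.6% to 54.99%). MGP was the lowest of the most variable, at 39.1%. The most variable were C4orf48, a small secreted peptide, and TMEM160, a mitochondrial membrane protein, and the least variable SLC30A6, a zinc transporter, and PSMD5, a chaperone of proteasome assembly. The first 90 coding bases of these genes (GENCODE 29 transcripts on GRCh38, 5' to 3') are shown, with each CG dinucleotide in capitals, to show the base composition of the genes at both ends of the order:
C4orf48: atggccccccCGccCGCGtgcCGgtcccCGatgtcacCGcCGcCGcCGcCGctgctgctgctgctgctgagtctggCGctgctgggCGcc
TMEM160: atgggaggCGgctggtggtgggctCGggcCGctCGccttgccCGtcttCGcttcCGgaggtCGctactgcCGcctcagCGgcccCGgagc
SLC30A6: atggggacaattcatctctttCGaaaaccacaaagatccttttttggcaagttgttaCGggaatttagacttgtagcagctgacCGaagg
PSMD5: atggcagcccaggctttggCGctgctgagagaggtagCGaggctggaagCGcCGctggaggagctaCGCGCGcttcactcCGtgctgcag
The whole transcripts had 73.2% and 72.2% GC for C4orf48 and TMEM160, and 37.7% and 41.2% for SLC30A6 and PSMD5. The coding start of PSMD5, with 66.7% GC, is richer than its transcript and closer to that of TMEM160 (74.4%) than to that of SLC30A6 (42.2%). C4orf48 (hg19 chromosome 4, 2043689 to 2045697) had 13.9, 2.75, 10.5 and 7.53 RPKM in replicates 1 to 4. TMEM160 (chromosome 19, 47549165 to 47551888) had 17.6, 6.33, 16.4 and 6.78 RPKM. Both were higher in replicates 1 and 3 than in replicates 2 and 4. SLC30A6 (chromosome 2, 32390933 to 32449448) had 5.73, 5.76, 5.73 and 5.74 RPKM, and PSMD5 (chromosome 9, 123577774 to 123605262) 10.8, 10.9, 10.9 and 10.9 RPKM.

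The other genes of large spread were MIF, a cytokine, ALKBH7, a mitochondrial dioxygenase, TSPO, a cholesterol-binding protein of the outer mitochondrial membrane, METRN, a secreted glial factor, NME3, a nucleoside diphosphate kinase, TMEM238, MGP and CYP1A1. MIF had 58.8, 19.5, 51.7 and 28.6 RPKM, with replicates 1 and 3 high. CYP1A1, a cytochrome P450 that hydroxylates estradiol and is induced through the aryl hydrocarbon receptor, went another way with 63.3, 52.1, 135 and 98.9 RPKM, high in replicates 3 and 4. Its transcript has 53.3% GC. Beside SLC30A6 and PSMD5 the steadiest genes were ZNF669, BRD2, SLC39A10, ANKIB1, MTA3, ADSS, ERLEC1 and RBMX2, with highest values at most 1.03 times the lowest.

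Cell cycle genes were mostly low in replicate 1, both before and after the GC trend was removed. Of the 46 genes on the list 45 reached 1 RPKM, led by PCNA, the sliding clamp of DNA replication, at 50.2 ± 7.16 RPKM. MKI67, the proliferation marker Ki-67, had 7.50, 12.8, 12.005 and 15.5 RPKM in replicates 1 to 4. TOP2A, a topoisomerase of dividing cells, had 33.5, 53.1, 53.3 and 56.0 RPKM. CENPE, a motor of the kinetochore, had 4.41, 8.79, 7.92 and 8.82 RPKM. Replicate 1 was lowest for all 3. It was the lowest library for 34 of 45 list members with a GC value, against 2731 of 10399 genes tested (26.3%). The median deviation of the list in replicate 1 was -0.32 on the log2 scale, and -0.35 after the GC trend was removed. In replicates 2, 3 and 4 it was 0.01, 0.16 and 0.15 before removal and 0.10, 0.08 and 0.15 after it. The levels of CCNE2, cyclin E2, at 4.30, 4.73, 4.91 and 4.79 RPKM, and MCM2, a subunit of the replicative helicase, at 13.7, 11.0, 16.2 and 14.5 RPKM, varied less or in another order.

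Ribosomal protein genes were high in replicate 1, the opposite of the cell cycle genes. The summed level of 77 of them was 9483, 7288, 8830 and 7549 RPKM in replicates 1 to 4, and replicate 1 was highest for 61 of 76 members with a GC value, against 3338 of 10399 genes tested. Their median deviation in replicate 1 was 0.21, and 0.16 after removal of the GC trend. Chaperones varied little in sum, between 2413 and 2619 RPKM, although HSPA8 was lowest in replicate 1 at 603 RPKM. Glycolytic genes followed the split of the libraries, with sums of 2626, 1977, 2610 and 2017 RPKM in replicates 1 to 4. GAPDH made up the largest part of these sums. The median deviation of the list was 0.13, -0.22, 0.20 and -0.12 in replicates 1 to 4. Over all coding genes tested it was 0.03, -0.10, 0.09 and -0.02, a split in the same direction. After removal of the GC trend the list stood at 0.02, -0.05, 0.08 and -0.06. In the immediate early and stress list TXNIP, a redox and glucose sensor, was the highest at 120 ± 8.52 RPKM. EGR1 stood at 5.12 and FOS at 0.749 RPKM, and HMOX1, heme oxygenase, was high in replicate 3 at 17.2 RPKM, against 10.3 to 11.2 RPKM in the others.

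The split of the libraries coincides with the passage in their records, which allows a test of replicates 2 and 4 (passage 10) against replicates 1 and 3 (passage 8). RPKM of 1018 of 11371 genes differed (limma, Benjamini-Hochberg adjusted p under 0.05), which is 8.95% of them, 1000 lower at passage 10 (8.79% of genes tested) and 18 higher (0.158%). The median log2 change over all genes was -0.12. The number of calls changed with single libraries and with the scaling: without replicate 2 it was 11 genes, without replicate 1 it was 91 and without replicate 4 it was 661. With the libraries scaled to the same median it was 2 genes, and with the GC trend removed 0 of 11153 (1239 at an unadjusted p under 0.05). The log2 change of MIF was -1.05 with equal medians and -0.72 with the GC trend removed, against -1.20, and that of OVCA2 was -0.93 and -0.67, against -1.04. Of the genes called lower 97.6% had a GC content above the median of those tested. The same libraries also differed in the share of reads in exons, 78.3% and 80.0% at passage 10 and 83.0% and 83.7% at passage 8. Mitochondrial ribosomal RNA held 33.9% and 30.4% of the recovered reads at passage 10, and 27.2% and 26.6% at passage 8. Passage, GC trend, exon share and the share of mitochondrial ribosomal RNA cannot be told apart in 4 libraries.

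TMEM160 had the lowest p, with 6.33 and 6.78 RPKM at passage 10 and 17.6 and 16.4 RPKM at passage 8, a log2 change of -1.31 (standard error 0.107, limma adjusted p = 0.00625). PPIAP22, a processed copy of the cyclophilin gene PPIA, had 1.11 and 1.25 RPKM at passage 10 and 3.53 and 3.34 RPKM at passage 8 (log2 change -1.23, limma adjusted p = 0.00879). Its GC content, 49.0%, is close to the median of 48.0%. Among the 10 genes of lowest p were also TSPO (log2 change -1.11), MIF (-1.20), OVCA2, a serine hydrolase (-1.04), DGAT1, which makes triglycerides (-0.81), C17orf70, a Fanconi anemia core protein (-0.83), HAGHL (-0.80), RP11-395A13.2 (-1.04) and RP11-262H14.5 (-1.01), each with a limma adjusted p of 0.0298 or less. With the GC trend removed the smallest limma adjusted p of any gene was 0.0656, for PPIAP22 and TMEM160. Their log2 changes were then -1.10 and -0.82.

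Of the 18 genes called higher at passage 10, 7 were encoded by mitochondria, among 15 such genes tested. Over all 11371 genes tested 0.158% were called higher. MT-CO2, a subunit of cytochrome oxidase, had 1442 and 1154 RPKM at passage 10 and 820.4 and 732 RPKM at passage 8 (log2 change 0.73, limma adjusted p = 0.0336). With the GC trend removed its log2 change was 0.81 (limma adjusted p = 0.365). MT-ND2, a subunit of complex I, had 114 and 87.7 RPKM at passage 10 and 53.5 and 58.8 RPKM at passage 8 (log2 change 0.83, limma adjusted p = 0.0298), and 0.86 with the GC trend removed (limma adjusted p = 0.328). Of 15 non-polyadenylated RNAs tested 6 were called lower, among them RN7SL2 (log2 change -1.10) and RMRP (-0.80). Of the luminal lists 2 of 23, 4 of 21 and 4 of 28 tested members were called lower, with median log2 changes of -0.12, -0.31 and -0.13. Over all genes tested 8.79% were called lower, and the first of these shares lies near that. ELF3, CLDN3, KRT19, CTSD and ERBB2 were among them. Of 76 ribosomal protein genes 15 were called lower, and of 46 cell cycle genes 0 were called, with a median log2 change of 0.15.

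Replicate 4 held a small group of genes that the other E2 libraries had barely or at lower levels. With a minimum of 0.3 RPKM and 30 reads, 21 genes, all protein coding, were at least 2 times above the highest other E2 library in replicate 4, and 14 of them at least 3 times. The same rule, chosen after seeing the values, gave 10 genes (5 protein coding) in replicate 1, 4 (2) in replicate 2 and 0 in replicate 3. In each of the 21 genes replicate 4 was also above every library treated with E2 and DHT. The group took 2720 reads, 0.0166% of the reads of the library.

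Of these genes 5 lie within 165 kb of chromosome 6 (hg19, 26087509 to 26252303). They were 4 histone genes, HIST1H2BH, HIST1H3F, HIST1H1D and HIST1H4D, and HFE, a regulator of iron uptake. HIST1H2BH had 6.32 RPKM in replicate 4, 0.0924 RPKM in replicate 2 and was listed at 0 in replicates 1 and 3. HIST1H1D, a linker histone, had 6.10 RPKM in replicate 4 and 0.121, 0.0505 and 0.322 RPKM in replicates 1, 2 and 3. HIST1H1E, another histone gene, had 78.2, 86.3, 111 and 90.3 RPKM in replicates 1 to 4.

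SERPINA6, the corticosteroid-binding globulin, had 6.72 RPKM in replicate 4 and 0.389, 0.530 and 0.406 RPKM in replicates 1, 2 and 3. MGP, an inhibitor of calcification, had 13.3 RPKM in replicate 4 and 5.03, 4.85 and 4.22 RPKM in the others. STC2, an estrogen-induced glycoprotein hormone, had 3.91 RPKM and 1.86, 1.29 and 1.60 RPKM, so that its mean of 2.16 RPKM was 1.58 ± 0.282 RPKM without replicate 4. OLFML3, a secreted matrix protein, stood at 2.11 RPKM and at most 0.191 RPKM elsewhere, and SPINK5, a skin protease inhibitor, at 0.491 RPKM and at 0 elsewhere. The remaining members were GNG11, NRAS, LIN28A, PTGER3, ELF5, SPRY2, CXCL12, MGST1, SLFN11, HEG1 and NLRP2, at 0.340 to 1.76 RPKM in replicate 4. STC2 and CXCL12 are also on the luminal list of secreted and estrogen-linked genes. What sets the 21 genes apart in replicate 4 was not tested.

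**Figure D5:**
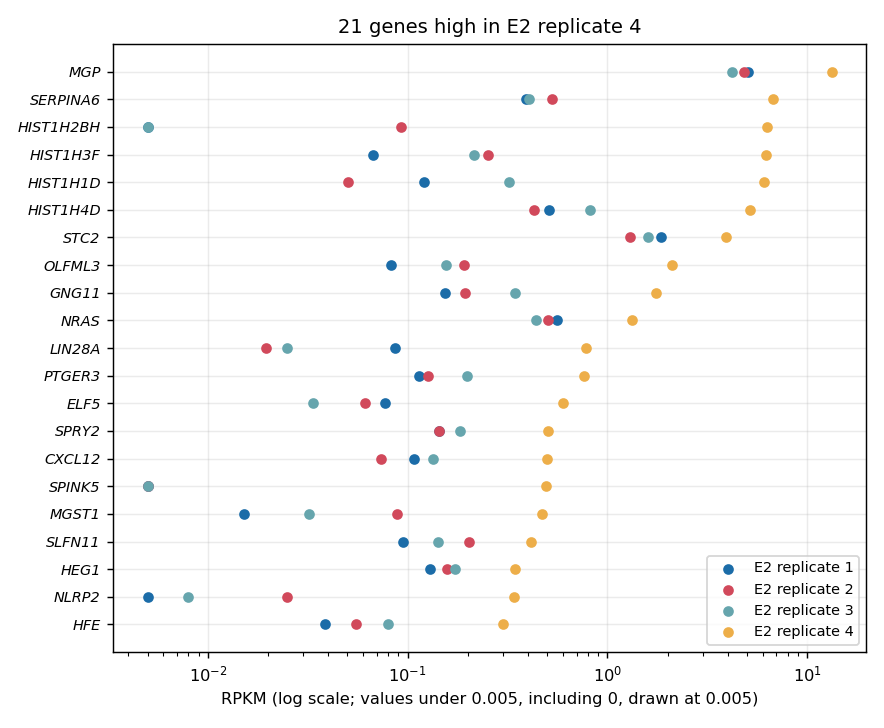
RPKM (x axis, log scale, values under 0.005 drawn at 0.005) of the 21 genes (y axis) chosen for a value in E2 replicate 4 at least 2 times that of every other E2 library. The other 3 libraries lie close to each other for MGP and NRAS, and for the 4 histone genes replicate 4 stands at 5.19 to 6.32 RPKM against at most 0.819 RPKM.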

How the data were processed

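The authors deposited 1 table of RPKM values for 57773 genes in 8 libraries. The genome build was hg19, per the submitters' processing notes. The aligner, the counter, strand use and the annotation were not given in the sources used here. RPKM values move in steps of 1 read. At a tolerance of 0.001 reads 100% of the genes above 0 gave whole reads, taken at the shortest exon length that did so, which may be too low for genes with few reads. Levels are means ± SD over the 4 E2 libraries. Spread and tests used log2(RPKM + 0.5), which understates changes of low genes, for genes with a mean of at least 0.5 RPKM. Libraries with record passage 10 were compared with those of passage 8 by limma 3.58.1 (R 4.3.3, intensity trend, two-sided, Benjamini-Hochberg adjustment). The test was checked on simulated libraries in which genes varied independently. These held no trend shared across genes, such as that with GC content, so the check does not cover such a trend. Tables and plots used Python 3.11.15 and pandas 2.3.3. Members, gene lists and tests were chosen with earlier results of these data known. Genes were named by a rule: the highest by biotype and chromosome, the luminal lists, lineage markers at 1 RPKM or more, HOX genes at 1 RPKM or more, the 10 most and least variable, and the 10 of lowest p. Of 268 lineage entries 265 were found in the table, and of 76 luminal ones 75. Intervals of counting error do not cover repeated molecules. Leaving out libraries, other groupings, filters, pseudocounts and scalings were tried. A few genes that this rule names are not reported here.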

Additional observations from a re-analysis of the deposited data

Results flagged for a closer look

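In 324 groups of 4 values (library measures, named genes and summed lists) the farthest library was set against the range of the group, and 23 had a library whose gap to its nearest neighbour passed Dixon's critical value as a share of that range. Chance gives about 1 in 20 for a single group. The groups share the same 4 libraries and are not independent, so the 23 were not tested against that rate. Of the 23, 12 had replicate 1 as the far library, 5 replicate 2, 5 replicate 3 and 1 replicate 4. The groups did not take in every gene named above, nor every summed list. CXCL12, ELF5 and LIN28A, each high in replicate 4 alone, are not among the 23. The summed pluripotency and germ line list, at 0.801 RPKM in replicate 4 and at most 0.120 RPKM in the others, is not among them either. The count for replicate 4 therefore does not describe the group of genes high in that library.

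Replicate 1 was low in 8 cell cycle genes. It had 33.5 RPKM of TOP2A, 13.2 of the cyclin CCNB2, 12.1 of the cyclin CCNA2, 5.85 of the checkpoint kinase BUB1, 23.1 of the spindle factor TPX2, 12.3 of the replication licensing factor CDC6, 22.7 of the spindle protein NUSAP1 and 4.09 of the checkpoint kinase TTK. It was also low in BTF3, a translation factor, at 105 RPKM. Replicate 1 was high in GATA3 at 25.3, EHF, an epithelial Ets factor, at 18.2 and TXNIP at 133 RPKM.

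Replicate 2 was high in MT-ND4 and MT-CYB, mitochondrial subunits of the respiratory chain, at 438 and 426 RPKM. It was low in HSP90AB1 at 284, IGFBP4 at 21.2 and DNAJB1, a heat shock cochaperone, at 20.8 RPKM. Replicate 3 was high in SCD at 163, ENO2 at 6.61, CCNE1, cyclin E1, at 8.64 and HMOX1 at 17.2 RPKM, and the summed neuroendocrine list stood at 7.56 RPKM there, mostly ENO2. Replicate 4 was far from the others for MGP, at 13.3 RPKM.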

How the results depend on the processing

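Counts of genes in use, of luminal genes and of silent markers kept within 1.5 times of their values in all alternatives except that 62 lineage markers, not 198, were at 0 throughout. Without single E2 replicates the genes at 0.5 RPKM numbered 11333 to 11423, the luminal genes 71 throughout and the silent markers 195 to 201. The share of the 10 highest genes was 71.2% to 72.1% of the RPKM sum without single replicates, 68.2% without genes under 300 bases and 37.7% in reads. The protein-coding share was 28.2% to 29.2%, 33.1% and 63.0%, and the mitochondrial share 36.2% to 40.8%, 44.8% and 30.6%. The median SD, 0.144, was 0.130 to 0.149 without single replicates and 0.133 over the records titled E2. It was 0.104 with no filter, 0.166 and 0.126 at pseudocounts of 0.1 and 1, and 0.131 with equal medians. Over the nuclear protein-coding genes with a GC value it was 0.0959 with the GC trend removed, against 0.141 before. The 1018 passage calls became 11 to 1178 without single replicates, 1720 with voom on recovered reads (1668 lower), 2 with equal medians, 0 with no filter on low values (3556 at an unadjusted p under 0.05) and 0 with the GC trend removed, an alternative chosen after seeing the data. With 1 library left at a passage, it is assumed to vary like the others. Of 128 refits of the 10 named passage genes 36 missed the threshold and 0 changed direction. These genes were chosen for the lowest p in the same libraries. A change of direction was therefore unlikely from the start, and the 0 is no added support. The cause of the passage differences was not tested. No paired analysis was possible because the 2 passages compared within E2 share no replicate number.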
